A study of Mus musculus with 8 samples.

Results

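The genes described here are 32 mouse genes that take up glucose, break it down to pyruvate, and route pyruvate either to lactate or into the mitochondrion. They were chosen as a list of 31 gene symbols, with Pkm added because the files hold muscle-type pyruvate kinase under that symbol. All 32 had 1 entry in every library table, among 20388 gene identifiers kept, and all 32 were among the 11867 genes tested. A gene was tested when it reached 1 FPKM (fragments per kilobase per M mapped fragments, a level corrected for gene length and library size) in at least 2 of the 8 libraries.

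RNA was sequenced from embryonic stem cells (ESCs) of tatsf1 flox/flox CreERT2 mice, that is, cells whose Htatsf1 gene is flanked by recombination sites and which carry a Cre recombinase that tamoxifen switches on. HTATSF1 is an RNA-binding protein, and the study compared cells with and without it. The 4 groups were tamoxifen for 48 h, ethanol for 48 h, tamoxifen for 72 h and ethanol for 72 h, with 2 libraries each. Ethanol was the control, and cells of every group carried the floxed gene and CreERT2 and were grown on mouse embryonic fibroblasts (MEFs) in conventional ESC medium. No group received tamoxifen without a floxed gene, so an effect of tamoxifen or of the active recombinase and an effect of the lost gene cannot be told apart. The promoter that drives CreERT2, the number of ESC clones and the origin of the libraries of 1 group (1 culture or several) are not given in the sources used here. The p-values therefore measure spread between libraries only, and that spread may be technical.

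Htatsf1 averaged 3.95 FPKM in tamoxifen cells and 22.3 FPKM in ethanol cells at 48 h, and 4.38 FPKM in tamoxifen cells and 22.7 FPKM in ethanol cells at 72 h. The confidence bounds in the files imply 8.99 to 16.8 M fragments a library, and libraries of 1 group correlated at 0.995 to 0.997 on log2(FPKM + 1). The cells expressed Pou5f1, a core transcription factor of ESCs, at 472 to 655 FPKM in every library, while Sox2 was listed at 0 in all 8. Fibroblast markers, which the MEF feeder layer would bring, were detected too and moved with tamoxifen. Their 25 genes summed to 1019 to 1031 FPKM in tamoxifen and 703 to 737 FPKM in ethanol libraries at 48 h, and to 1496 to 1581 FPKM in tamoxifen and 796 to 828 FPKM in ethanol libraries at 72 h. Of the 25, 23 were higher at 48 h and 24 at 72 h, beside 7.88% and 20.1% of all genes tested. Thbs1 and Fn1 were the most abundant, and none of the 25 was at 0 in all libraries. Of 17 pluripotency markers tested, 1 was lower in tamoxifen cells at 48 h and 10 were lower at 72 h, with Dppa5a the most abundant. Among all genes tested 4.47% were lower at 48 h and 18.5% at 72 h. The 5.88% of these markers at 48 h is near the former and is no result about them. Of 4 primitive endoderm markers tested, 3 were higher at 72 h. The list of 7 summed to 11.6 and 12.6 FPKM in tamoxifen libraries and 6.00 and 6.84 FPKM in ethanol libraries at 72 h. Its Pdgfra is also on the fibroblast list. At 72 h 1 of 4 neural markers tested was lower and 1 higher, and 1 of 4 trophoblast markers was lower and 2 higher. The part of these shifts in the results below was not tested.

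Glycolysis splits glucose into pyruvate in the cytosol and yields ATP without oxygen. Lactate dehydrogenase turns pyruvate into lactate, which monocarboxylate transporters carry out of the cell, while the pyruvate dehydrogenase complex turns it into acetyl-CoA for the mitochondrion. The pyruvate dehydrogenase kinases switch that complex off and so hold pyruvate in the cytosol. Pluripotent cells are known for a high rate of glycolysis, and many of these genes are known targets of the hypoxia-inducible factors (HIFs).

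At 48 h of tamoxifen 7 of the 32 genes were called, and the largest changes were falls of Pdk1 and Bnip3. Against ethanol, 5 were lower (Pfkp, Eno3, Pdk1, Pdhb and Bnip3) and 2 were higher (Hk1 and Pdk4) at an adjusted p under 0.05 (limma, Benjamini-Hochberg over all genes tested). Among all genes tested 4.47% were lower and 7.88% were higher, 12.4% in either direction, beside 21.9% of the 32. At an unadjusted p under 0.05 by limma, 10 of the 32 were lower and 4 were higher. The share of all genes at that unadjusted cut was not counted. The median log2 change of the 32 was -0.08, beside 0.02 for all genes tested. In 20 of the 32 both tamoxifen libraries lay below both ethanol libraries, as they did for 26.1% of all genes tested, and in 5 both lay above, as for 32.7%. The calls at 48 h were fragile, and calls over all genes tested also became fewer whenever a library of 48 h was left out. Leaving out 1 library left between 1 and 5 lower and between 0 and 2 higher, and of the 7 only Pdk1 was called whichever library was left out. With no filter on low values only Pdk1 stayed called (the other 6 at 0.0898 to 0.186), and with no mean trend Hk1, Pfkp, Eno3 and Pdhb were lost. Over all genes, 531 lower and 935 higher became 163 and 360 with no filter, and 378 and 854 with no mean trend. The fewest lower calls, 1, came without library 2 of ethanol at 48 h, against 2 without library 1 of that group, 2 without library 2 of tamoxifen at 48 h and 3 without its library 1.

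At 72 h genes of transport, of upper and lower glycolysis and of lactate production, with kinases and 1 subunit of pyruvate dehydrogenase, were lower in tamoxifen than in ethanol cells. They were 17 of the 32: Slc2a1, Slc16a1, Slc16a3, Hk2, Pfkl, Pfkp, Aldoa, Aldoc, Tpi1, Pgk1, Eno3, Ldha, Ldhb, Pdk1, Pdk3, Dlat and Bnip3. None was higher by limma at an adjusted p under 0.05, although 1 of the 32, Pfkfb4, was higher at an unadjusted p under 0.05. Among all genes tested 18.5% were lower and 20.1% were higher, 38.5% in either direction. The median log2 change of the 32 was -0.20, beside -0.01 for all genes tested. In 22 of the 32 both tamoxifen libraries lay below both ethanol libraries, as they did for 34.5% of all genes tested, and in 6 both lay above, as for 35.2%. Because these are bulk samples, fewer cells of a type and less RNA per cell cannot be told apart. The count of 17 fell to 11 without library 2 of tamoxifen at 72 h and to 11 without library 1 of ethanol at 72 h. Whichever library was left out, 11 were called: Hk2, Pfkl, Pfkp, Aldoc, Tpi1, Pgk1, Ldhb, Pdk1, Slc16a1, Slc16a3 and Bnip3. With no filter on low values, with no mean trend or with the 72 h libraries only, the calls of Slc2a1, Aldoa, Eno3, Ldha and Dlat were lost (adjusted p-values of 0.0595 to 0.162).

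**Figure D1:**
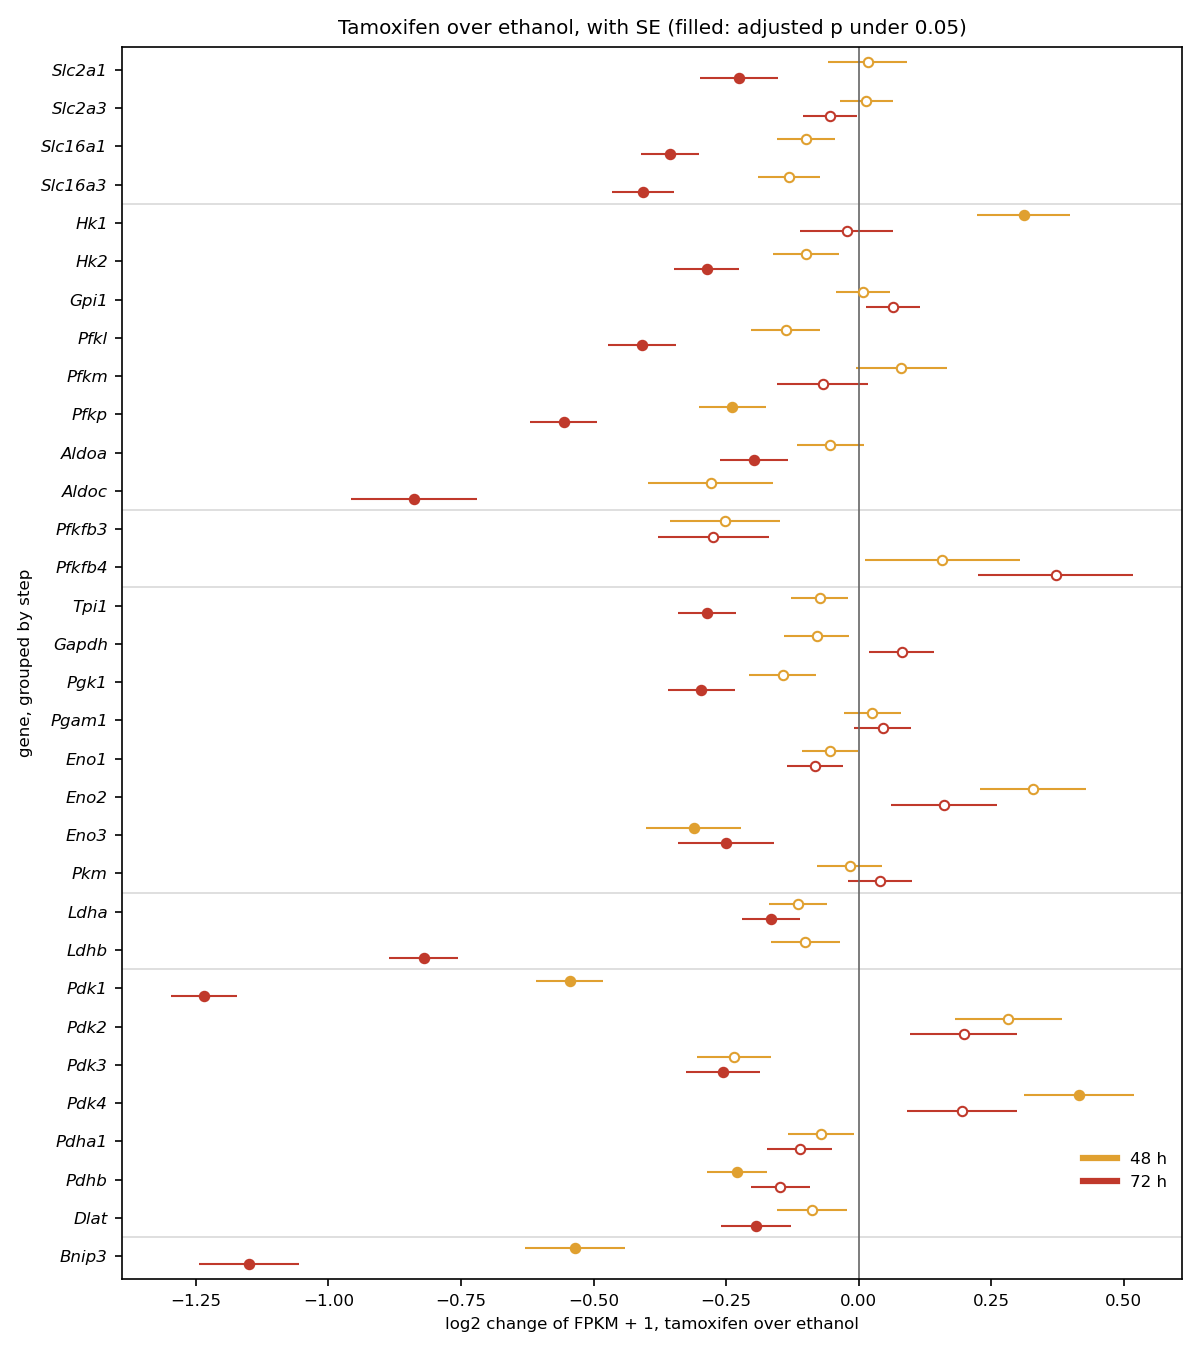
Log2 change of FPKM + 1 in tamoxifen over ethanol cells for the 32 genes, grouped by step, at 48 h (yellow) and at 72 h (red); bars are standard errors and filled points passed an adjusted p of 0.05. Pdk1 (-1.23) and Bnip3 (-1.15) lie farthest to the left at 72 h, and no filled red point lies to the right of 0.

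As a share of all FPKM, the 32 genes made up 1.45% and 1.34% in tamoxifen libraries and 1.52% and 1.50% in ethanol libraries at 72 h. At 48 h they made up 1.56% and 1.57% in tamoxifen libraries and 1.60% and 1.65% in ethanol libraries. The share was lower in tamoxifen libraries at both times, with no overlap. The highest levels were those of Gapdh, at 949.6 to 1336 FPKM over the 8 libraries, and Pkm, at 1213 to 1341 FPKM, and neither passed the test at 48 h or 72 h.

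The glucose carriers on the list are Slc2a1 (GLUT1) and Slc2a3 (GLUT3), and of these Slc2a1 was lower at 72 h while Slc2a3 did not pass the test. Slc2a1 had 153 and 137 FPKM in tamoxifen libraries at 72 h, against 181 and 159 FPKM in ethanol libraries, a log2 change of -0.23 (SE 0.07, adjusted p = 0.0343). The groups did not overlap, but the gap between them was smaller than the gap between the 2 ethanol libraries. The call was lost without library 2 of tamoxifen at 72 h (adjusted p = 0.188), without library 1 of ethanol at 72 h (0.248) and without library 1 or 2 of ethanol at 48 h (0.0522 and 0.0523). Slc2a3 had 252 and 243 FPKM in tamoxifen libraries and 259 and 255 FPKM in ethanol libraries at 72 h, with a 95% interval of the log2 change from -0.17 to 0.06.

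The lactate carriers Slc16a1 (MCT1) and Slc16a3 (MCT4) were both lower at 72 h and were called whichever library was left out. Slc16a1 had 38.7 and 40.0 FPKM in tamoxifen libraries and 49.5 and 51.7 FPKM in ethanol libraries at 72 h, a log2 change of -0.36 (SE 0.05, adjusted p = 0.000704). Slc16a3 had 45.7 and 43.2 FPKM in tamoxifen libraries and 61.6 and 56.9 FPKM in ethanol libraries, a change of -0.41 (SE 0.06, adjusted p = 0.000461). Tamoxifen cells thus held 77.7% of the ethanol level of Slc16a1 and 75.0% of that of Slc16a3. At 48 h the changes were -0.10 and -0.13 and neither passed the test. Slc16a3 made up 54.1% and 51.9% of the summed FPKM of both carriers in tamoxifen libraries at 72 h, against 55.4% and 52.4% in ethanol libraries, which overlapped.

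From hexokinase to aldolase, 5 of 8 genes were lower at 72 h, among them 2 of the 3 phosphofructokinases. Hexokinase traps glucose as glucose 6-phosphate, and its isozymes Hk2 and Hk1 passed the test at different times. Hk2 had 40.9 and 36.9 FPKM in tamoxifen libraries and 48.8 and 46.6 FPKM in ethanol libraries at 72 h (log2 change -0.29, SE 0.06, adjusted p = 0.00471). The groups lay apart, as they did for Hk1 at 48 h in the other direction. Hk1 had 9.29 and 10.5 FPKM in tamoxifen libraries and 7.46 and 8.13 FPKM in ethanol libraries at 48 h (log2 change 0.31, SE 0.09, adjusted p = 0.044). At 72 h Hk1 had 17.8 and 17.3 FPKM in tamoxifen libraries and 19.2 and 16.7 FPKM in ethanol libraries, which overlapped (log2 change -0.02, 95% interval -0.22 to 0.17). The rise of Hk1 at 48 h was not called under median-ratio scaling (adjusted p = 0.0662) or quantile normalization (0.0988), nor without any 1 of 6 libraries. These were library 1 or 2 of tamoxifen at 48 h (0.0531 and 0.232), library 1 or 2 of ethanol at 48 h (0.218 and 0.101) and library 1 or 2 of tamoxifen at 72 h (0.053 and 0.0524). The summed fibroblast markers were also higher in tamoxifen cells at 48 h, and their part in the level of Hk1 was not tested.

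Phosphofructokinase commits the sugar to glycolysis. Its platelet-type subunit Pfkp had 32.4 and 31.9 FPKM in tamoxifen libraries and 49.6 and 45.9 FPKM in ethanol libraries at 72 h (log2 change -0.56, SE 0.06, adjusted p = 0.000113). Its liver-type subunit Pfkl, the most abundant of the 3, had 74.1 and 66.0 FPKM in tamoxifen libraries and 95.2 and 91.1 FPKM in ethanol libraries (-0.41, SE 0.06, adjusted p = 0.000816). For both genes every tamoxifen library lay below every ethanol library, at 67.3% and 75.2% of the ethanol mean. The muscle-type subunit Pfkm had 20.2 and 18.7 FPKM in tamoxifen libraries and 21.6 and 19.3 FPKM in ethanol libraries, which overlapped (log2 change -0.07, 95% interval -0.26 to 0.12). Pfkp was already lower at 48 h, with 28.7 and 27.5 FPKM in tamoxifen libraries against 34.7 and 32.0 FPKM in ethanol libraries (-0.24, SE 0.06, adjusted p = 0.0362). That earlier call was lost without library 1 or 2 of tamoxifen at 48 h (0.0871 and 0.17), without library 1 or 2 of ethanol at 48 h (0.224 and 0.0744) and under quantile normalization (0.0505). Pfkp made up 25.6% and 27.3% of the summed phosphofructokinase FPKM in tamoxifen libraries at 72 h, against 29.8% and 29.4% in ethanol libraries, while Pfkm made up 15.9% and 16.1% in tamoxifen against 13.0% and 12.3% in ethanol libraries.

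Aldolase splits fructose 1,6-bisphosphate, and both its isozymes on the list were lower at 72 h. Aldoc, the brain-type isozyme, had 5.14 and 4.96 FPKM in tamoxifen libraries and 10.5 and 9.21 FPKM in ethanol libraries, a log2 change of -0.84 (SE 0.12, adjusted p = 0.000428). Aldoa, the main isozyme here, had 722 and 659 FPKM in tamoxifen libraries and 823 and 760.3 FPKM in ethanol libraries, a change of -0.20 (SE 0.06, adjusted p = 0.0311). The fall of Aldoc left it at 51.4% of the ethanol mean, on 58.0 to 239 fragments a library. Aldoc was a minor share of aldolase throughout, 0.707% and 0.748% of the summed FPKM in tamoxifen libraries at 72 h against 1.26% and 1.20% in ethanol libraries. The call of Aldoa was lost under quantile normalization (log2 change -0.11, adjusted p = 0.162), without library 2 of tamoxifen at 72 h (0.154), without library 1 of ethanol at 72 h (0.191) and without library 1 or 2 of ethanol at 48 h (0.0552 and 0.0556). Gpi1, which turns glucose 6-phosphate into fructose 6-phosphate, had 138 and 135 FPKM in tamoxifen libraries and 135 and 127 FPKM in ethanol libraries at 72 h (log2 change 0.06, 95% interval -0.05 to 0.18).

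The bifunctional enzymes Pfkfb3 and Pfkfb4 set the level of fructose 2,6-bisphosphate, the activator of phosphofructokinase, and neither passed the test at either time. Both were scarce, Pfkfb4 resting on 35.0 to 106 fragments a library. Pfkfb3 had 2.05 and 2.31 FPKM in tamoxifen libraries and 2.89 and 2.80 FPKM in ethanol libraries at 72 h (log2 change -0.27, adjusted p = 0.0598). Under quantile normalization (adjusted p = 0.0229) and with no mean trend (0.0342) limma called Pfkfb3 lower at 72 h. Pfkfb4 had 1.72 and 1.20 FPKM in tamoxifen libraries and 0.957 and 0.821 FPKM in ethanol libraries (0.37, adjusted p = 0.0678). These values lie apart between groups in opposite directions, and the depth leaves wide intervals, from -0.50 to -0.04 for Pfkfb3 and from 0.05 to 0.70 for Pfkfb4. Without library 2 of tamoxifen at 72 h, Pfkfb4 would be called higher (adjusted p = 0.038).

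Below aldolase 3 of 8 genes were lower at 72 h, and the 4 most abundant, Pkm, Gapdh, Eno1 and Pgk1, included 1 of them. Tpi1, which interconverts the pair of triose phosphates, had 161 and 164 FPKM in tamoxifen libraries and 200.0 and 196 FPKM in ethanol libraries (log2 change -0.29, SE 0.05, adjusted p = 0.00236). Pgk1, which makes the first ATP of the pathway, had 406 and 425 FPKM in tamoxifen libraries and 505 and 517 FPKM in ethanol libraries (-0.30, SE 0.06, adjusted p = 0.00455). Neither overlapped between groups, and tamoxifen cells held 81.9% of the ethanol level of Tpi1 and 81.4% of that of Pgk1. Eno3, the muscle-type enolase, had 8.63 and 7.34 FPKM in tamoxifen libraries and 10.0 and 9.32 FPKM in ethanol libraries at 72 h (-0.25, SE 0.09, adjusted p = 0.0495). Eno3 was also lower at 48 h, with 8.64 and 9.06 FPKM in tamoxifen libraries against 10.6 and 11.8 FPKM in ethanol libraries (-0.31, SE 0.09, adjusted p = 0.0486). Both Eno3 calls stand at the threshold. The one at 72 h was lost without any library but library 1 of tamoxifen at 72 h, with adjusted p-values of up to 0.286, and the one at 48 h without either library of tamoxifen at 48 h, ethanol at 48 h or ethanol at 72 h, with values of up to 0.265.

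The other enzymes of this stretch did not pass the test at either time. Pkm, which makes pyruvate and the last ATP, had 1341 and 1225 FPKM in tamoxifen libraries and 1258 and 1236 FPKM in ethanol libraries at 72 h (log2 change 0.04, 95% interval -0.10 to 0.18). Gapdh, which makes the NADH that lactate dehydrogenase uses up, had 1022 and 1028 FPKM in tamoxifen libraries and 949.6 and 989 FPKM in ethanol libraries (0.08, interval -0.05 to 0.22). Neither interval reaches the fall of Pgk1. Pgam1, a mutase between Pgk1 and enolase, had 412 and 404 FPKM in tamoxifen libraries and 404 and 387 FPKM in ethanol libraries (0.05, interval -0.07 to 0.16). Eno1, the main enolase, had 608 and 576 FPKM in tamoxifen libraries and 634 and 619.7 FPKM in ethanol libraries (-0.08, interval -0.20 to 0.04). Eno2, the neuronal enolase, was scarce, with 3.31 and 3.43 FPKM in tamoxifen libraries and 2.79 and 3.04 FPKM in ethanol libraries (0.16, interval -0.06 to 0.38). At 48 h Eno2 had 1.63 and 1.91 FPKM in tamoxifen libraries and 1.23 and 1.18 FPKM in ethanol libraries (0.33, interval 0.11 to 0.55, adjusted p = 0.0579), and it was called higher there with pseudocount 0.1 (0.0419) and with no mean trend (0.0293). Mouse Gapdh and Eno1 are known to have near-identical copies elsewhere in the genome, and how shared reads were assigned is not given in the sources used here, so their levels are uncertain. For Eno1 the authors' group means of normalized counts were 0.241 to 0.32 of the fragments that its FPKM implies, against 0.787 to 1.36 for the other 31 genes.

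**Figure D2:**
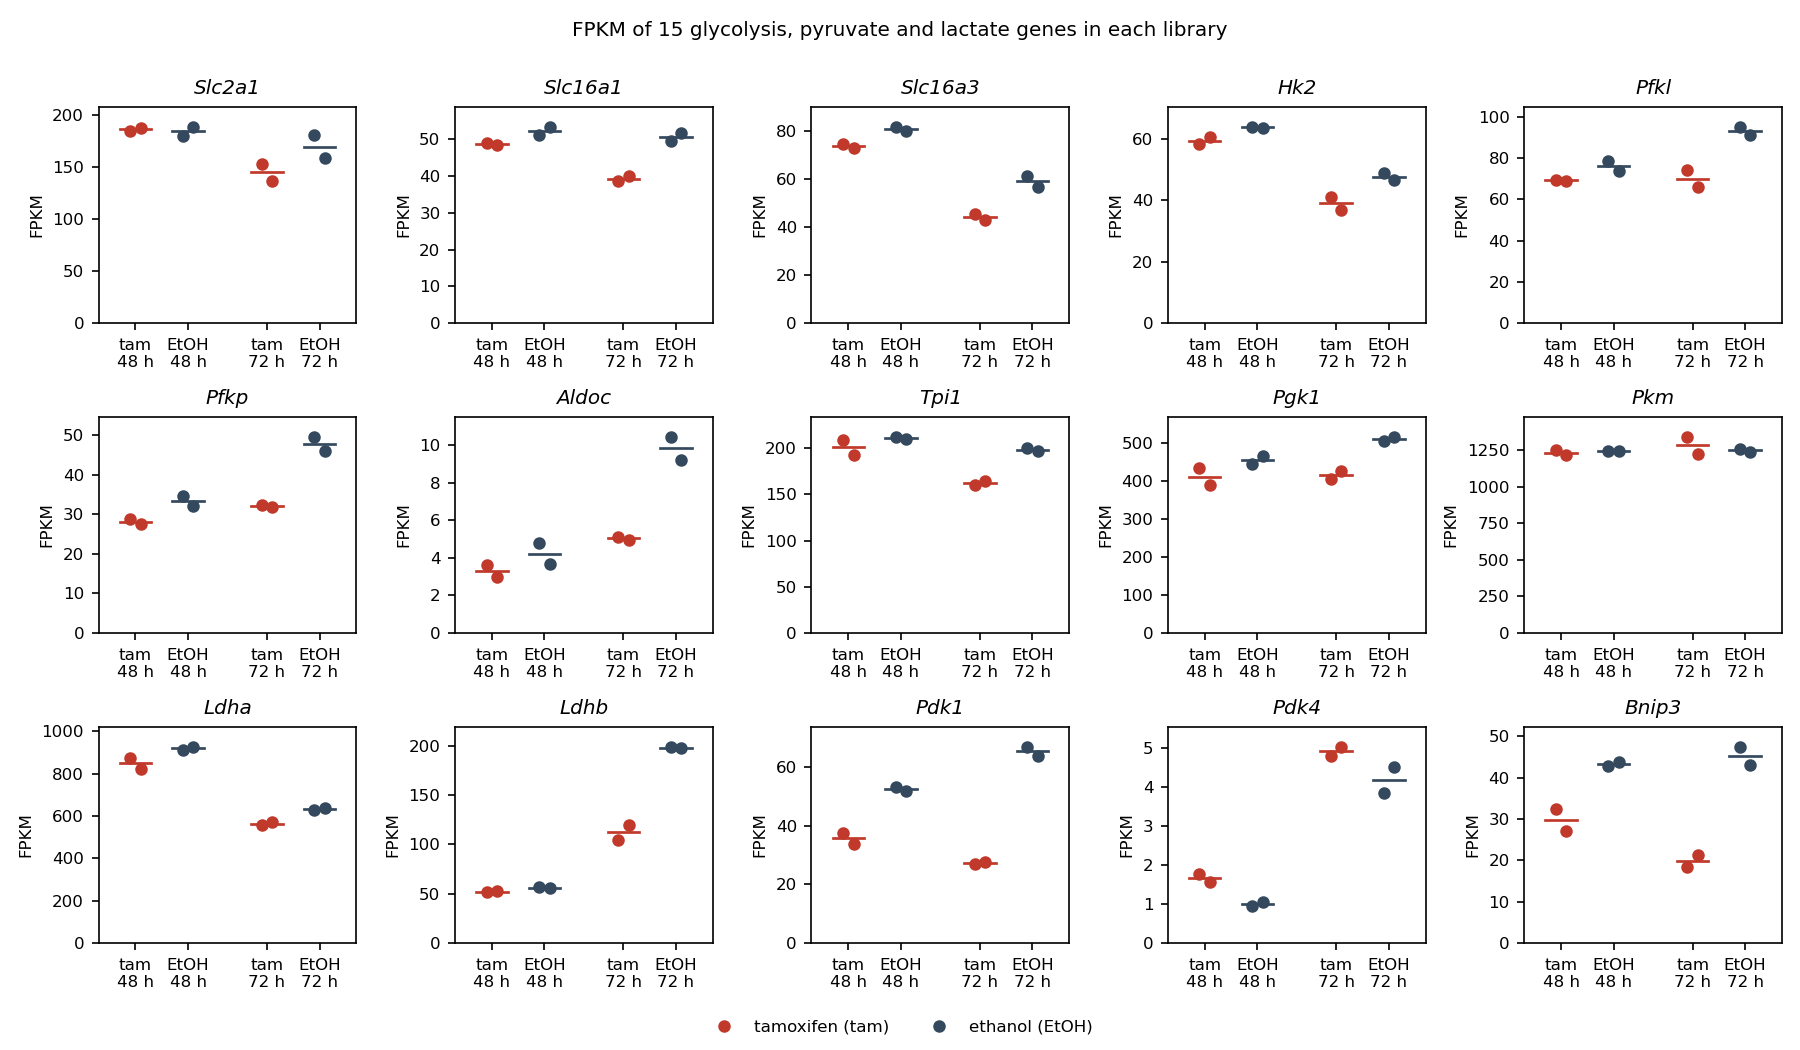
FPKM of 15 of the 32 genes in each library, with the mean of each group as a line; tamoxifen (tam, red) stands left of ethanol (EtOH, blue) at each time and every axis starts at 0. Pdk1 and Bnip3 separate at both times, Ldhb separates widely at 72 h (104 and 120.1 FPKM in tamoxifen, 199 and 197 FPKM in ethanol libraries), and Pkm overlaps at 72 h.

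Both lactate dehydrogenase subunits were lower at 72 h. Ldhb, the heart-type subunit, is known to favour the turning of lactate into pyruvate, and Ldha, the muscle-type subunit, the reverse. Ldhb had 104 and 120.1 FPKM in tamoxifen libraries at 72 h, against 199 and 197 FPKM in ethanol libraries, a log2 change of -0.82 (SE 0.07, adjusted p = 1.21e-05). No tamoxifen library came near the ethanol libraries, and tamoxifen cells held 56.5% of the ethanol mean. At 48 h Ldhb had 51.8 and 52.4 FPKM in tamoxifen libraries and 56.3 and 55.6 FPKM in ethanol libraries, a change of -0.10 (SE 0.07, adjusted p = 0.356). The change of Ldhb at 72 h differed from that at 48 h by -0.72 (SE 0.09, adjusted p = 0.00727). Ldha had 559 and 569 FPKM in tamoxifen libraries and 628 and 638 FPKM in ethanol libraries at 72 h, a change of -0.17 (SE 0.05, adjusted p = 0.0349). The call of Ldha was lost without 1 of 6 libraries: library 1 or 2 of tamoxifen at 72 h (0.0995 and 0.0553), library 1 or 2 of ethanol at 72 h (0.0889 and 0.135) and library 1 or 2 of ethanol at 48 h (0.0616 and 0.062).

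The share of Ldhb in all lactate dehydrogenase transcripts, as a share of summed FPKM, was 15.7% and 17.4% in tamoxifen libraries and 24.1% and 23.6% in ethanol libraries at 72 h. At 48 h it was 5.60% and 5.99% in tamoxifen libraries and 5.83% and 5.65% in ethanol libraries, which overlapped. In both treatments Ldhb took a larger share at 72 h than at 48 h, and the larger step was in ethanol cells. The shares are given as values, with no test.

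**Figure D3:**
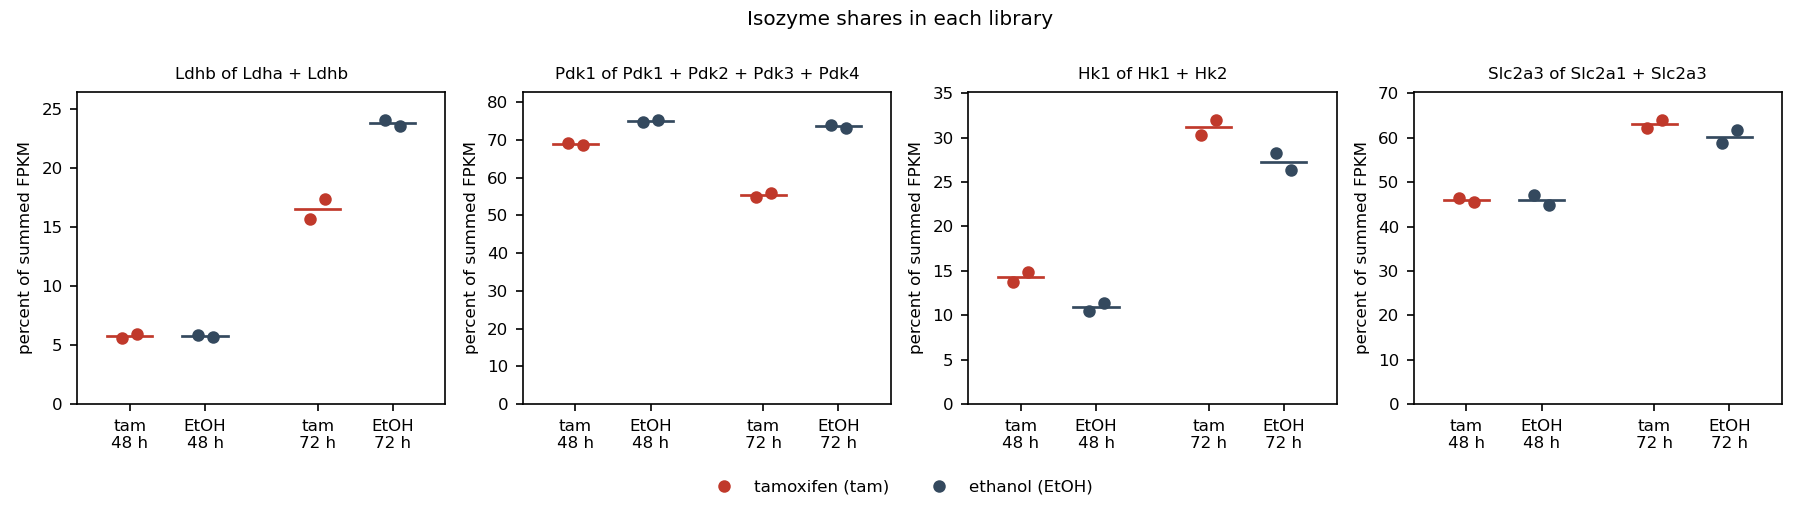
Share of 1 isozyme in the summed FPKM of its family in each library, for Ldhb, Pdk1, Hk1 and Slc2a3, with group means as lines; tamoxifen (tam) stands left of ethanol (EtOH) at each time. At 72 h Pdk1 made up 54.8% and 56.0% of pyruvate dehydrogenase kinase FPKM in tamoxifen and 74.0% and 73.3% in ethanol libraries.

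The gene of largest fall on the list was Pdk1, which lies at chr2:71711329-71741915 (mm9). Its product is a kinase that phosphorylates and switches off pyruvate dehydrogenase. Pdk1 had 26.9 and 27.6 FPKM in tamoxifen libraries at 72 h, against 67.1 and 64.0 FPKM in ethanol libraries, a log2 change of -1.23 (SE 0.06, adjusted p = 9e-07). At 48 h it had 37.7 and 33.9 FPKM in tamoxifen libraries and 53.2 and 52.0 FPKM in ethanol libraries, a change of -0.54 (SE 0.06, adjusted p = 0.000814). Tamoxifen cells held 68.0% of the ethanol level at 48 h and 41.6% at 72 h, and the groups were far apart at both times. The change at 72 h differed from that at 48 h by -0.69 (SE 0.09, adjusted p = 0.00727).

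Of the other kinases, Pdk3 was called lower at 72 h and Pdk4 was called higher at 48 h. Pdk3 had 13.9 and 13.4 FPKM in tamoxifen libraries and 17.0 and 15.9 FPKM in ethanol libraries at 72 h, a log2 change of -0.26 (SE 0.07, adjusted p = 0.0156). At 48 h the change of Pdk3 was nearly the same, -0.23 (SE 0.07), and just missed the threshold (adjusted p = 0.0545). Limma called it lower at 48 h under median-ratio scaling (0.0298), quantile normalization (0.0462) and a mean FPKM of at least 5 (0.0484). The changes at both times differed by -0.02 (adjusted p = 0.928), so a fall of Pdk3 at 72 h only is not shown. The call of Pdk3 at 72 h was lost without library 2 of tamoxifen at 72 h (0.0704) and without library 1 of ethanol at 72 h (0.0986). Pdk2 and Pdk4, both scarce, lay on the other side. Pdk4, known for its induction in fasting, had 1.77 and 1.56 FPKM in tamoxifen libraries and 0.954 and 1.04 FPKM in ethanol libraries at 48 h (log2 change 0.42, SE 0.10, adjusted p = 0.0264). At 72 h Pdk4 had 4.79 and 5.03 FPKM in tamoxifen libraries and 3.83 and 4.51 FPKM in ethanol libraries (0.19, adjusted p = 0.16). Pdk2 had 3.52 and 3.32 FPKM in tamoxifen libraries and 2.78 and 2.92 FPKM in ethanol libraries at 72 h (0.20, adjusted p = 0.145). Pdk4 rested on 39.0 to 272 fragments a library and Pdk2 on 28.0 to 144. The rise of Pdk4 at 48 h was lost without library 1 or 2 of tamoxifen at 48 h (0.137 and 0.0569), without library 1 or 2 of ethanol at 48 h (0.132 and 0.0926) and under quantile normalization (0.0548). As with Hk1, the part of the fibroblast markers in it was not tested.

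Among the kinases Pdk1 made up most of the FPKM in every group. Its share was 54.8% and 56.0% in tamoxifen libraries at 72 h, against 74.0% and 73.3% in ethanol libraries, and 69.1% and 68.7% in tamoxifen libraries at 48 h, against 74.8% and 75.2% in ethanol libraries. The share of Pdk3 was 28.3% and 27.1% in tamoxifen libraries at 72 h, against 18.7% and 18.2% in ethanol libraries.

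Of the 3 subunits of the pyruvate dehydrogenase complex on the list, Pdhb was lower at 48 h and Dlat at 72 h. The E1 beta subunit Pdhb had 118 and 109 FPKM in tamoxifen libraries and 130.4 and 136 FPKM in ethanol libraries at 48 h (log2 change -0.23, SE 0.06, adjusted p = 0.0243). At 72 h Pdhb had 93.6 and 92.8 FPKM in tamoxifen libraries and 103 and 104 FPKM in ethanol libraries (-0.15, adjusted p = 0.0588). The libraries lay apart at both times. The call of Pdhb was lost without library 2 of tamoxifen at 48 h (0.169), without library 1 of ethanol at 48 h (0.0783) and without library 2 of ethanol at 48 h (0.174). Dlat, the E2 subunit that carries the acetyl group, had 22.7 and 23.1 FPKM in tamoxifen libraries and 27.4 and 25.3 FPKM in ethanol libraries at 72 h (-0.19, SE 0.07, adjusted p = 0.039). The call of Dlat was lost without library 1 or 2 of tamoxifen at 72 h (0.121 and 0.0796), without library 1 of ethanol at 72 h (0.216) and without library 1 or 2 of tamoxifen at 48 h (0.0516 and 0.0517). Pdha1, the E1 alpha subunit that the kinases phosphorylate, had 84.7 and 91.0 FPKM in tamoxifen libraries and 91.2 and 98.8 FPKM in ethanol libraries at 72 h, with a 95% interval of the log2 change from -0.25 to 0.03.

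Bnip3, a receptor on the outer mitochondrial membrane that marks mitochondria for removal, lies at chr7:146082519-146101189 (mm9) and fell nearly as far as Pdk1. It had 18.4 and 21.4 FPKM in tamoxifen libraries at 72 h, against 47.5 and 43.1 FPKM in ethanol libraries, a log2 change of -1.15 (SE 0.09, adjusted p = 1.37e-05). At 48 h it had 32.3 and 27.0 FPKM in tamoxifen libraries and 42.7 and 43.8 FPKM in ethanol libraries, a change of -0.54 (SE 0.09, adjusted p = 0.0061). The groups were apart at both times, and tamoxifen cells held 68.5% of the ethanol level at 48 h and 43.9% at 72 h. The call at 48 h was lost without library 2 of ethanol at 48 h (0.0577). The change at 72 h differed from that at 48 h by -0.61 (SE 0.13, adjusted p = 0.0366), a call that was lost without library 1 of tamoxifen at 48 h (0.101), either library of ethanol at 48 h (0.124 and 0.114), library 1 of tamoxifen at 72 h (0.0818) or either library of ethanol at 72 h (0.107 and 0.0698), and with no mean trend (0.0792).

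The promoters of these genes were read for the core letters of HIF binding sites, because many members are known HIF targets. RefSeq promoter windows of 300 bases (GRCm38.p6, from 250 bases before a transcription start to 50 after it) were found for 31 of the 32 genes, all but Slc2a3. The core was searched as ACGTG and as GCGTG on both strands (reverse complements CACGT and CACGC); matches may overlap, so that a CACGTG holds both ACGTG and CACGT and counts as 2. Printed here with the core in capitals is the window listed first for each of the 3 genes whose change differed between times, and for Ldha for contrast.
Pdk1 (chr2:71872974-71873273, plus strand, GRCm38.p6): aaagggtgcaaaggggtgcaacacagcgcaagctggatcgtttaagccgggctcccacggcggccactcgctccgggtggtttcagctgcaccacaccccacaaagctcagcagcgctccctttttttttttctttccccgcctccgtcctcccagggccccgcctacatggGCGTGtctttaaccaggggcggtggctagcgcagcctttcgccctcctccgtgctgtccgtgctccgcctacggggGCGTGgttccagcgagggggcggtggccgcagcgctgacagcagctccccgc
Bnip3 (chr7:138909457-138909756, minus strand, GRCm38.p6): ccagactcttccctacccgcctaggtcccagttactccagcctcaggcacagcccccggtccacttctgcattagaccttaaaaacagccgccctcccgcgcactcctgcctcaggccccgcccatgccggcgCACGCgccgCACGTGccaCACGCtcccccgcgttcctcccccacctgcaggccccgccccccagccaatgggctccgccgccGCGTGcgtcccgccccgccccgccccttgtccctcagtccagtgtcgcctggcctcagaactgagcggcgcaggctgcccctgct
Ldhb (chr6:142507908-142508207, minus strand, GRCm38.p6): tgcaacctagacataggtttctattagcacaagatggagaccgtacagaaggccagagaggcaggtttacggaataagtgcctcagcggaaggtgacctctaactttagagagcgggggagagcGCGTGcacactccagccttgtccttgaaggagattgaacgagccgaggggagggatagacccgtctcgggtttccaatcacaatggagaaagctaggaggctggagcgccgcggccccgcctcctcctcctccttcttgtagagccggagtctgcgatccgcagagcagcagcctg
Ldha (chr7:46845554-46845853, plus strand, GRCm38.p6): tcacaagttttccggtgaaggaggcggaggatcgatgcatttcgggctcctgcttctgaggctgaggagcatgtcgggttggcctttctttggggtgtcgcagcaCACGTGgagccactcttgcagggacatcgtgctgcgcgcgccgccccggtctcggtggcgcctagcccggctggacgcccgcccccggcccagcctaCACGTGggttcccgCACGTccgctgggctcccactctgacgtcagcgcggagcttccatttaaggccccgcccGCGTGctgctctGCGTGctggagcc

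Every printed window holds the core: 7 matches for Ldha, 5 for Bnip3, 2 for Pdk1 and 1 for Ldhb. ACGTG is in the windows of Ldha (5 matches) and Bnip3 (2), and the Pdk1 and Ldhb windows hold GCGTG only. Ldha and Pdk1 each have another window in the table, with 2 matches (both GCGTG) for Ldha and 0 for Pdk1. Either form was in a window of 27 of the 31 genes (87.1%), beside 69.1% of the tested genes in the RefSeq table. ACGTG alone was in a window of 18 of the 31 (58.1%), beside 29.9%, and GCGTG in one of 21 (67.7%), beside 57.5%. By window, ACGTG was in 21 of 45 windows of the list (46.7%), beside 25.6% of the 11447 windows of tested genes. Among members lower at 72 h, 15 of 17 had either form in a window (88.2%), beside 12 of the 14 other matched members (85.7%), and for ACGTG the counts were 10 of 17 (58.8%) beside 8 of 14 (57.1%). A match describes letters in a window and is not a site.

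The difference between the changes at 72 h and 48 h was called for Ldhb, Pdk1 and Bnip3, all with the larger fall at 72 h, and for no member in the other direction (limma; none at an unadjusted p under 0.05). Among all genes tested 1.45% were lower and 2% were higher in this difference, 3.45% in either direction. In 25 of the 32 genes the difference was negative, with a median of -0.15, beside -0.01 for all genes tested. At an unadjusted p under 0.05 the count was 11, adding Slc2a1, Hk1, Pfkl, Pfkp, Aldoc, Tpi1, Slc16a1 and Slc16a3. The share of all genes at that unadjusted cut was not counted, so this count is no result about the list. By p-value Pfkp came next, with a difference of -0.32 (SE 0.09, adjusted p = 0.085), although Aldoc (-0.56) and Hk1 (-0.33) had larger differences. With no filter on low values, which tests 20388 genes, none of the 3 was called (adjusted p = 0.0781 for Pdk1, 0.0895 for Ldhb and 0.214 for Bnip3). Over all genes, 172 lower and 237 higher became 10 and 20 in that setting, so the loss is not particular to these genes.

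Between 48 h and 72 h the list also changed in ethanol cells, which sets the level that tamoxifen cells are compared with. On the FPKM scale the median of all genes tested rose by 0.11 over this interval in both treatments, while median-ratio scaling of the libraries puts it at 0.01 in tamoxifen and -0.0017 in ethanol cells, so changes over time are given relative to that median. In tamoxifen cells 11 members were lower and 9 were higher at 72 h than at 48 h, beside 19.6% and 37.5% of all genes tested (57.1% in either direction). In ethanol cells 6 were lower and 13 were higher, beside 19.2% and 38% of all genes tested (57.2% in either direction). Under median-ratio scaling the members counted 15 lower and 8 higher in tamoxifen cells and 11 lower and 10 higher in ethanol cells, where all genes split 3311 lower and 3316 higher in tamoxifen and 3371 lower and 3343 higher in ethanol cells.

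**Figure D4:**
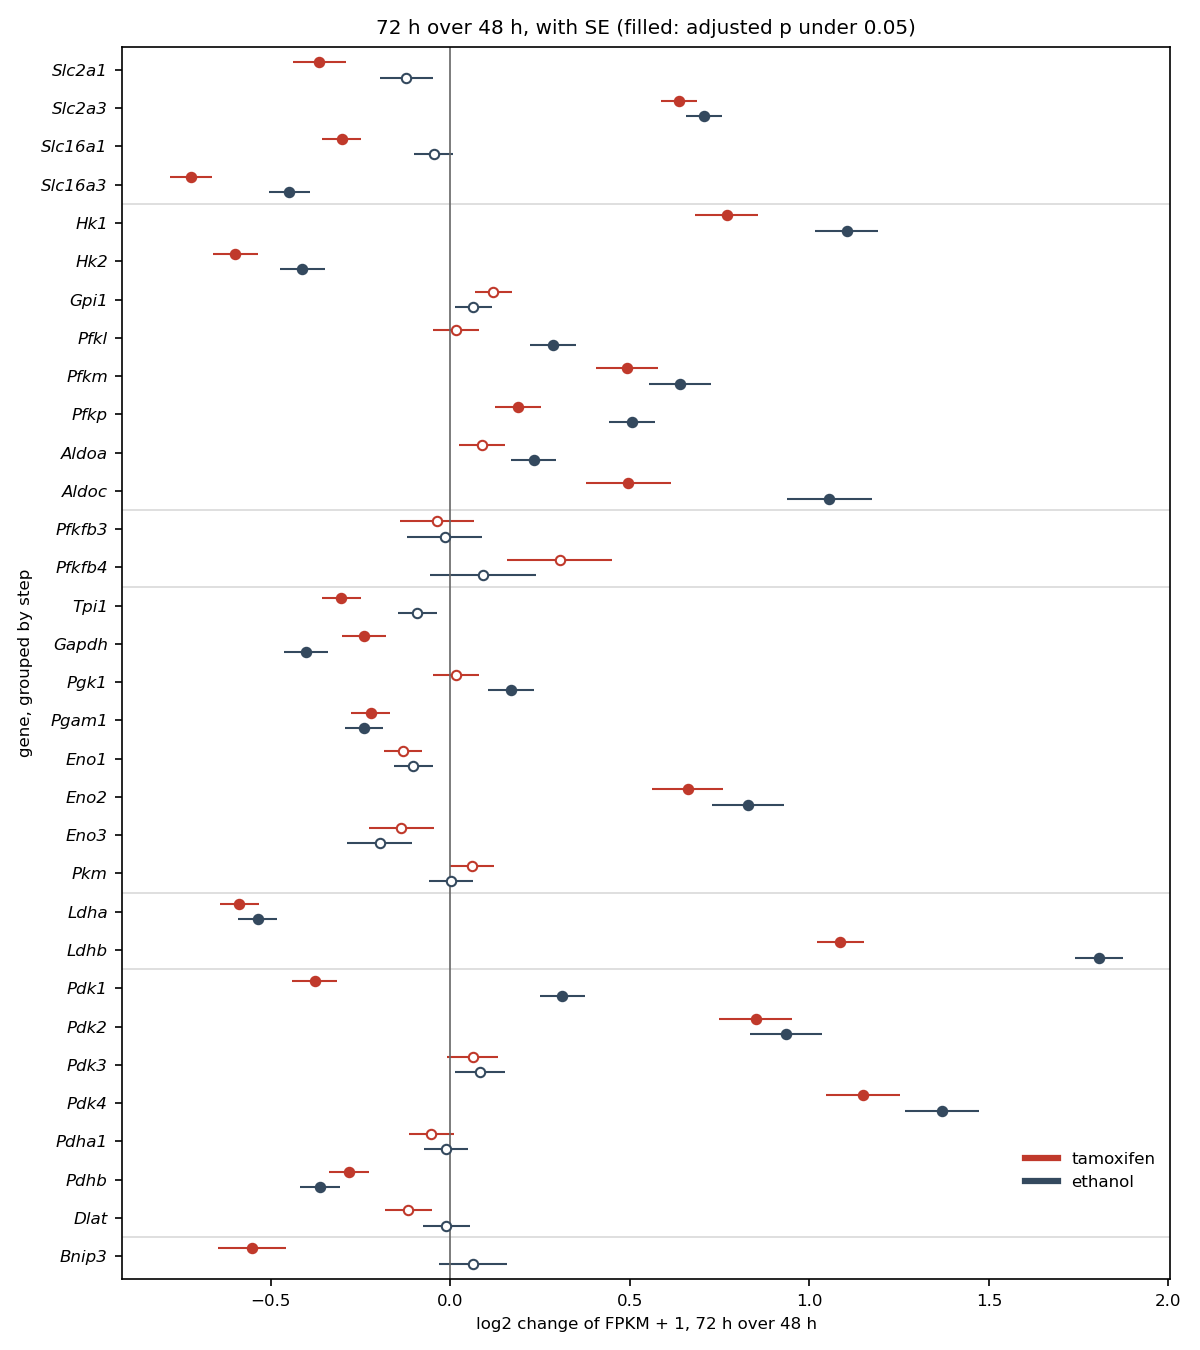
Log2 change of FPKM + 1 at 72 h over 48 h for the 32 genes, grouped by step, in tamoxifen cells (red) and in ethanol cells (blue); bars are standard errors and filled points passed an adjusted p of 0.05. Pdk1 lies left of 0 in tamoxifen cells (-0.38) and right of it in ethanol cells (0.31). Values here are not relative to the median of all genes.

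In ethanol cells the largest rise over time was that of Ldhb, which lay 0.97 above the median of all genes in tamoxifen cells and 1.70 above it in ethanol cells. Pdk4 rose by 1.03 more than that median in tamoxifen cells and by 1.26 more in ethanol cells, and Hk1 by 0.66 more in tamoxifen cells and 0.99 more in ethanol cells. Slc2a3 rose likewise, by 0.52 and 0.60 more than the median in tamoxifen and ethanol cells. Isozyme partners moved the other way: Ldha lay at -0.70 in tamoxifen and -0.65 in ethanol cells relative to the median, and Hk2 at -0.71 in tamoxifen and -0.52 in ethanol cells. The share of Hk1 in hexokinase FPKM at 72 h was 30.3% and 32.0% in tamoxifen libraries and 28.2% and 26.3% in ethanol libraries, against 13.8% and 14.8% in tamoxifen and 10.5% and 11.3% in ethanol libraries at 48 h. Pdk1 moved in opposite directions, at -0.49 relative to the median in tamoxifen cells and 0.20 in ethanol cells. Bnip3 lay at -0.67 in tamoxifen cells and -0.05 in ethanol cells.

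Lists of genes of neighbouring pathways were counted in the same fit and, as with the 32, were chosen with earlier results of these data known. Their counts stand beside the 12.4% of all genes tested that were called at 48 h and the 38.5% called at 72 h. Shares near those are no result about a list. The share of all genes at an unadjusted p under 0.05 was not counted. Of 20 tested genes of the tricarboxylic acid cycle, none was called at 48 h (limma; 5 had an unadjusted p under 0.05), and 6 were lower and 1 was higher at 72 h (35% called). Idh2, the mitochondrial NADP isocitrate dehydrogenase, had 38.6 and 42.9 FPKM in tamoxifen libraries and 65.0 and 62.9 FPKM in ethanol libraries at 72 h (log2 change -0.64, adjusted p = 0.000105). Its cytosolic counterpart Idh1 had a change of -0.38 at 72 h (adjusted p = 0.0012). Suclg1, a subunit of succinyl-CoA ligase, had the smallest p of the list at 48 h (-0.17, adjusted p = 0.114). Of 7 tested genes of pyruvate entry beyond the list, 2 were lower at 72 h (28.6% called): the phosphatase subunit Pdp2, which switches pyruvate dehydrogenase back on (-0.42, adjusted p = 0.00361), and the complex component Pdhx (-0.28, adjusted p = 0.0115). At 48 h 1 was higher (14.3%), the pyruvate carboxylase Pcx (0.32, adjusted p = 0.0271); the change of Pdp1, another phosphatase subunit, was -0.25 and missed the threshold (adjusted p = 0.116).

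Of 15 tested genes of gluconeogenesis and glycogen, 1 was lower at 48 h (6.67% called), and 4 were lower and 1 was higher at 72 h (33.3% called). Pck2, the mitochondrial enzyme that makes phosphoenolpyruvate, had 12.7 and 12.3 FPKM in tamoxifen libraries and 22.0 and 20.6 FPKM in ethanol libraries at 72 h (log2 change -0.72, adjusted p = 0.000345) and was lower at 48 h as well (-0.61, adjusted p = 0.00427). Pygb, a glycogen phosphorylase, was lower at 72 h (-0.46, adjusted p = 0.000371). Gsk3a, a kinase that inhibits glycogen synthase, came second by p at 48 h (0.13, adjusted p = 0.203). Of 10 tested genes of the pentose phosphate pathway, 1 was lower at 48 h (10% called), and 1 was lower and 3 were higher at 72 h (40% called). The lower one was Pgls, which opens the lactone ring in that pathway, at both times (-0.35 at 48 h and -0.41 at 72 h). H6pd, its counterpart in the endoplasmic reticulum, was among the higher ones at 72 h (0.26, adjusted p = 0.0275). Of 9 tested further isozymes of glycolysis, 11.1% were called at 72 h, namely Pfkfb1, which was lower (-0.56, adjusted p = 0.00869), and Bpgm, Adpgk and Ldhd passed at neither time.

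HIF targets outside glycolysis included lower and higher genes. Of 19 tested, 1 was lower and 2 were higher at 48 h (15.8% called), and 5 were lower and 3 were higher at 72 h (42.1% called), with a median log2 change of -0.11 at 72 h. Only the genes of smallest p at each time are named below. Every value printed for this list is a rise, so none of the 5 falls at 72 h is shown. Among the higher ones, Ddit4, an inhibitor of mTORC1 signalling, had 126 and 131 FPKM in tamoxifen libraries and 81.5 and 73.7 FPKM in ethanol libraries at 72 h (log2 change 0.72, adjusted p = 2.65e-05). Adm, which encodes adrenomedullin, had 4.90 and 4.21 FPKM in tamoxifen libraries and 2.00 and 0.959 FPKM in ethanol libraries (1.19, adjusted p = 0.000435). P4ha2, a collagen prolyl hydroxylase, was higher at 48 h (0.49, adjusted p = 0.0114). Of 6 tested genes that link p53 to glucose use, 2 were called at 48 h (33.3%) and 3 at 72 h (50%). Sesn2, a stress-induced inhibitor of mTORC1, was higher at both times (0.32 at 48 h and 0.59 at 72 h, adjusted p = 0.000176 at 72 h). Sco2, needed to assemble cytochrome c oxidase, was higher at 72 h (0.47, adjusted p = 0.00193), and the glutaminase Gls2 was lower at 48 h (-0.27, adjusted p = 0.0486) and at 72 h (-0.39, adjusted p = 0.00318).

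The authors' deposited table of comparisons, whose fold changes were turned here to read tamoxifen over ethanol, has its own adjusted p. At a value under 0.05 it listed 11 of the 32 genes lower and 1 higher at 48 h, and 19 lower and none higher at 72 h. The share of all genes called in that table was not counted, so these counts are no result about the list. In the authors' deposited table Pdk1 had a log2 change of -0.54 at 48 h and -1.25 at 72 h, and Bnip3 one of -0.56 and -1.28. The sign in the authors' deposited table was the same as here for 28 of the 32 genes at 48 h and for 32 of 32 at 72 h. The widest gap in log2 change to the authors' deposited table was 0.19 at 48 h and 0.16 at 72 h, both for Pfkfb3. Calls differed for some genes. At 48 h Pfkl (authors' adjusted p = 0.00825), Pfkfb3 (0.0297), Tpi1 (0.00676), Pgk1 (0.000692), Ldha (0.0123) and Slc16a3 (0.0121) were lower there. These were not called here at 48 h. The rise of Pdk4 at 48 h was not called there (0.0729). Eno1 was lower there at 48 h and 72 h (authors' adjusted p = 0.023 and 0.0395), while Eno3 was called there at neither time (0.0621 and 0.191). Pfkfb3 (0.0126) and Pdha1 (0.00841) were lower there at 72 h and were not called here.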

How the data were processed

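Polyadenylated RNA of the 8 libraries was extracted with Trizol and sequenced as paired ends, per the labels' protocols. The authors deposited 1 table of FPKM per gene for each library, in the layout of Cufflinks, and 2 tables of comparisons in the layout of DESeq. The tools named, per the submitters' processing notes, are TopHat 1.4.1, BWA 0.6.1, DESeq, HTSeq and Cufflinks 1.3.0, and the build is mm9; the tools' roles are not given in the sources used here. The group means in the comparison tables are a signal, namely normalized counts that, per the file headers, the authors averaged within each group. The deposited fold ratio and log2 fold change run ethanol over tamoxifen, and the sign was turned; the deposited p-values were described, not retested.

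Of 20789 entries a library, for 20461 identifiers, 209 lacked the status OK somewhere and were left out, and the entry of highest mean FPKM was kept, leaving 20388. Genes with FPKM of at least 1 in at least 2 libraries (11867) were fitted as log2(FPKM + 1), pseudocount 1, so that changes of low genes are understated. One limma fit (R 4.3.3, limma 3.58.1, eBayes with a mean trend) over 8 libraries and 4 group means gave 4 residual degrees of freedom. Tests were two-sided, with Benjamini-Hochberg adjustment over all genes tested within each contrast and a call at 0.05; the fit was tested on simulated data. Fragments behind a value were taken from the deposited confidence bounds and cover counting error only. Starts count from 0 in the files (6935 of 7765 genes of matching length in a GRCm38 table), so 1 was added. RefSeq promoters are on GRCm38.p6, and no position was moved between builds.

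The members, gene lists and tests were chosen with earlier results of these data known. Every member is accounted for, with library values for those called. From each related list the 2 genes of smallest p at each time are named, and the most abundant of the fibroblast and pluripotency markers. Alternatives were scaling, pseudocount, filter, trend, a replicate block, fits of 1 time and leaving out each library.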

Additional observations from a re-analysis of the deposited data

Results flagged for a closer look

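The change in tamoxifen over ethanol cells differed between 72 h and 48 h for 3 of the 32 genes by the test of the difference itself (limma, adjusted over all genes tested). For Ldhb the difference of the log2 changes was -0.72, for Pdk1 it was -0.69 and for Bnip3 it was -0.61. In all 3 the tamoxifen libraries lay below the ethanol libraries at both times and the fall was larger at 72 h. In ethanol cells Ldhb and Pdk1 were higher at 72 h than at 48 h, by 1.70 and 0.20 on the log2 scale relative to the median of all genes, so the level that tamoxifen cells are set against also moved. No cause was tested. Groups of 2 libraries are too small for a check of single outlying libraries.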

How the results depend on the processing

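Of 2599 recomputed single-gene values, 2441 kept their direction and side of the threshold, 124 lost and 32 gained the call, and 2 turned sign: Pkm at 72 h over 48 h became lower under quantile normalization, at -0.21 in tamoxifen (adjusted p = 0.016) and -0.16 in ethanol cells (0.0476). At 48 h the 2 higher members became 1 under median-ratio scaling, with a mean FPKM of at least 5 or with only the libraries of that time, and 0 under quantile normalization, pseudocount 5 or no filter. The 5 lower became 1 with no filter and 2 with no mean trend. Over all genes the 531 lower became 163 and 378 in those settings. Leaving out 1 library gave 1 to 5 lower and 0 to 2 higher at 48 h, and 11 to 15 lower and 0 to 1 higher at 72 h. It gave 2 to 3 lower and 0 higher in the difference, 6 to 7 lower and 11 to 13 higher over time in ethanol, and 10 to 12 lower and 8 to 9 higher over time in tamoxifen cells. The difference became 0 lower with no filter, which tests 20388 genes and left 10 lower and 20 higher over all genes. The count lower over time in ethanol cells became 11 under median-ratio scaling. Same-numbered libraries did not deviate together (correlations 0.00240 at 48 h and -0.0615 at 72 h). These correlations cannot show whether same-numbered libraries came from paired cultures. A replicate block gave 5 lower and 2 higher at 48 h, 16 lower and 1 higher (Pfkfb4) at 72 h, and 2 lower in the difference. With that block the calls of Dlat at 72 h (adjusted p = 0.0526) and of Bnip3 in the difference (0.0669) were lost. Of all genes called at 48 h 63.8% were higher, and 51.6% under median-ratio scaling. The cause of these moves was not tested. The 2 libraries a group and 28.0 to 144 fragments for Pdk2 limit what the scarce isozymes can show.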
